A study of Homo sapiens with 4 samples.

Results

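The genes described here are the MYC network and TFAP4, namely MYC, its partner MAX, the MAX-binding antagonists MXD1, MXD3, MXD4, MXI1, MNT and MGA, and the MYC-induced factor TFAP4. They were matched by gene symbol, from a set drawn up with earlier results of these data known, and make up 9 of the 15357 genes listed and 9 of the 11955 genes that passed a filter on low counts, so none was lost to the filter. Polyadenylated RNA was sequenced from RKO, a human colorectal cancer cell line, in 2 samples of cells infected with a control lentivirus (vector) and 2 samples of cells infected with a lentivirus expressing the second CHD7 shRNA (shCHD7_2). All 4 samples were stable lentivirus-infected cultures grown in the same serum-supplemented medium, and the comparison asks how knockdown of CHD7, a chromatin remodeller, changed gene expression. Only 1 CHD7 shRNA was sequenced, so in these data loss of CHD7 and any other effect of this shRNA cannot be told apart. For TFAP4 the paper also reports lower mRNA by RT-PCR, lower accessibility of its promoter and binding of CHD7 there. Nothing states that the samples of a group came from separate infections or cultures, so p-values measure only the spread between these samples, which may be technical.

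MYC is a basic helix-loop-helix leucine zipper transcription factor that binds E-box DNA as a dimer with MAX and raises transcription of genes for ribosome assembly, metabolism and the cell cycle. MXD proteins, MXI1 and MNT also pair with MAX, bind the same E-boxes and recruit the SIN3 and histone deacetylase corepressors, while MGA joins MAX to a Polycomb complex. TFAP4 (also called AP4) binds the E-box CAGCTG as a homodimer, is induced by MYC, represses the cell-cycle inhibitor gene CDKN1A, and takes part in epithelial-mesenchymal transition of colorectal cancer cells.

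In the knockdown cells, TFAP4 and MXI1 fell, the levels of MYC overlapped between the groups, and it and the other 6 genes did not pass the test. TFAP4 mRNA was 0.583 times and MXI1 mRNA 0.652 times the vector level. Sequences of the 3′ untranslated regions are shown first, because these 2 genes held more of the words described next than the other members did. The words AGCTATT and, overlapping it, both GAAGCTA and the word GCTATTA had been picked in an earlier scan of these same data for words common in genes of lower level. These 3 words of 7 bases were looked up on the transcript strand in the longest 3′ UTR that GENCODE 29 gives for each gene. A single stretch can hold all of them. Within each sequence the capitals mark the matched bases, and the lower-case letters are the bases on either side, written 5′ to 3′ on the strand of the gene.
TFAP4, GRCh38 chr16:4257265-4257292, minus strand: gttcaaggaGAAGCTATTAtattttgtt
MXI1, GRCh38 chr10:110285453-110285480, plus strand: gctaataatgAGCTATTAaaactcagcc
MAX, GRCh38 chr14:65077698-65077724, minus strand: ggagacagtgGAAGCTAggaagttgga
MXD1, GRCh38 chr2:69942432-69942458, plus strand: tgctagattcAGCTATTgaatggctga

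The 3′ UTR of TFAP4, 869 bases long, held all 3 words in a single run, and that of MXI1, 2378 bases long, held AGCTATT overlapping the word GCTATTA. The 3′ UTRs of MAX (2601 bases) and MXD1 (4661 bases) held 1 word each, and those of MYC, MXD3, MXD4, MNT and MGA held none. Among the tested genes, 11693 had an annotated 3′ UTR, and 22.3% of these held at least 1 word. Among the genes called lower, to which TFAP4 and MXI1 belong, the share was 68.4% of 158, so a word is usual there. The words had been picked for being common in genes of lower level, so a high share there was fixed in advance. This share was not matched for length either. As longer 3′ UTRs hold more words by their length alone, the share was also taken over genes whose 3′ UTR was within 1.25-fold of the length of each member's. It was 10.7% of 1456 genes of the length of TFAP4, 28.8% of 1796 genes of the length of MXI1, 31.8% for MAX and 53.4% for MXD1. For members without a word it ran from 4.89% at the length of MYC to 59.8% at that of MGA. All 3 words together were present in 5 of the 1456 genes of the length of TFAP4. Since the words were picked on these data, their presence in TFAP4 and MXI1 is a description and was given no test, and the part of these words in the lower levels was not tested.

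CHD7 mRNA, the target, had 85.4 and 91.0 CPM (counts scaled to library size with TMM factors) in the vector samples and 55.5 and 50.1 CPM in the shCHD7_2 samples. The groups did not overlap, and its log2 fold change was -0.74 (standard error (SE) 0.088, adjusted p = 4.15e-06, quasi-likelihood F-test of edgeR, Benjamini-Hochberg adjusted). Library totals were 15734666 to 16068642 estimated counts. Across all genes, 1373 passed an adjusted p of 0.05 at any fold, 591 of them higher and 782 lower, whereas scaling by library totals gave 878 higher among 1486. A gene is called here when it also differed by at least 1.5-fold, as 344 genes did. Among 11 colon epithelial markers 8 were listed, of which KRT20, CDH1, CDH17 and LGALS4 lay below 1 FPKM (fragments scaled to transcript length and library depth) in every sample, while EPCAM, KRT8, KRT18 and CDX2 were present. The summed level of the 8 listed markers was 75.3 to 81.2 FPKM in the vector and 81.6 to 90.3 FPKM in the shCHD7_2 samples. Fibroblast markers (3 of 7 listed) summed to at most 0.13 FPKM and endothelial markers (2 of 3 listed) to at most 0.03 FPKM. Of 5 blood and immune markers only CD68, which also encodes a lysosomal protein of other cells, was listed, at 495.0 to 611.1 FPKM. In bulk RNA, fewer cells of a kind and less RNA per cell cannot be told apart.

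Of the 9 genes, 2 passed the adjusted p, both lower and both past 1.5-fold, which is 22.2% of the group. Over all genes tested, 11.5% passed the adjusted p, made up of 4.94% that were higher and 6.54% that were lower, and 2.88% were called, with 1.37% called lower. In 4 of the 9 genes the CPM of the groups did not overlap, against 53.7% of all genes tested. Among the 8 genes other than TFAP4 only MXI1 passed, a share of 12.5% that lies near the background. The median log2 fold change of the 9 genes was -0.02, beside 0.000557 over all genes tested. With 2 samples against 2, the smallest two-sided p of an exact permutation test of a single gene is 0.333, and the p-values given here come from the model fitted across all genes.

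**Figure D1:**
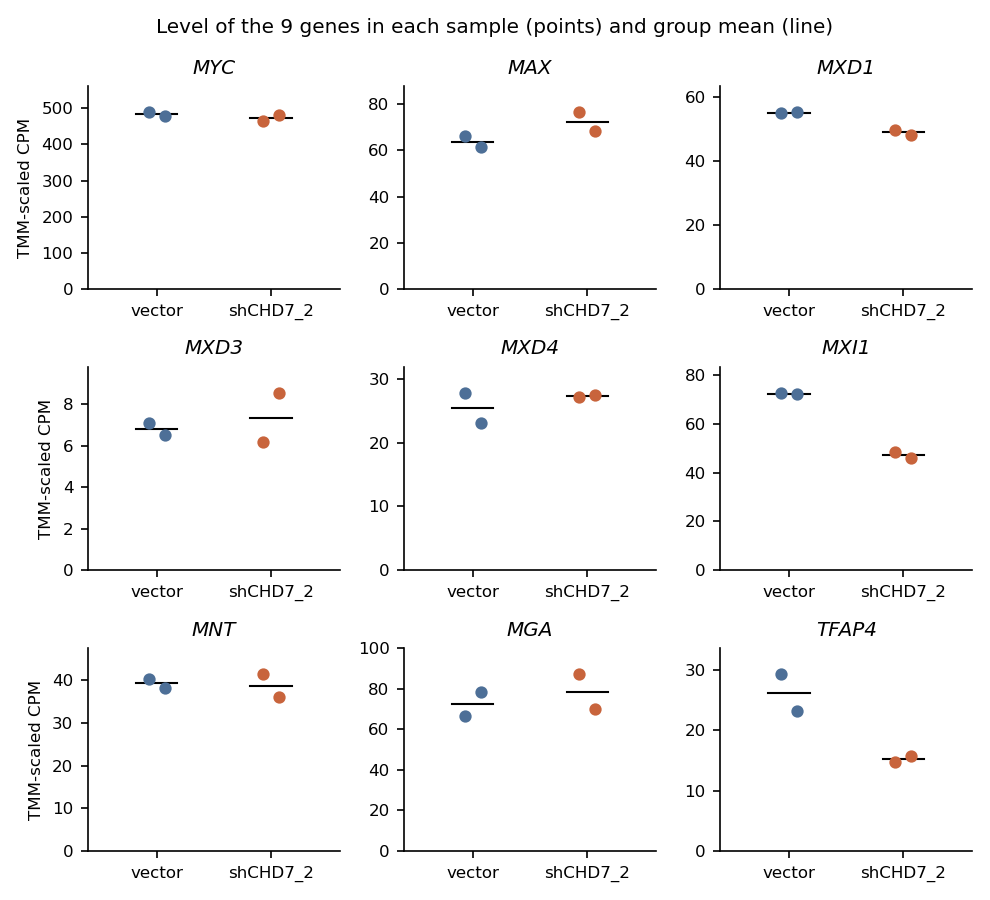
TMM-scaled CPM of the 9 genes in the 2 vector (blue) and 2 shCHD7_2 (orange) samples, each point 1 sample and each line a group mean, on linear axes that start at 0 and differ between panels. The shCHD7_2 points lie below the vector points for TFAP4, MXI1 and MXD1 and above them for MAX.

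MYC, encoded at chr8:127735434-127741434 (GRCh38, plus strand), gave 7578 and 7535 estimated counts in the vector samples and 7457 and 7678 in the shCHD7_2 samples. This corresponded to 488.1 and 477.3 CPM in the vector and 465.1 and 481.2 CPM in the shCHD7_2 samples. The groups overlapped and all 4 samples lay close together. The log2 fold change was -0.03 (SE 0.070, adjusted p = 0.839, edgeR), and its 95% interval ran from 0.886 to 1.084 times the vector level. A change of 1.5-fold in either direction lies outside this interval. The sign of the small difference was not stable, since it was 0.015 with scaling by library totals. By FPKM, which is per length and allows genes to be compared, MYC was at 110.5 and 107.7 in the vector and 108.8 and 111.6 in the shCHD7_2 samples, the 702nd highest of the 15357 genes by its mean of 109.7.

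MAX (chr14:65006174-65102695, minus strand), the obligate partner of MYC and of its antagonists, had 66.0 and 61.6 CPM in the vector and 76.4 and 68.4 CPM in the shCHD7_2 samples. Both shCHD7_2 samples were above both vector samples. The log2 fold change was 0.18 (SE 0.089, 95% interval -0.0018 to 0.37), and the adjusted p was 0.202 (edgeR), so the difference did not pass. The FPKM of MYC divided by that of MAX was 2.91 and 3.11 in the vector and 2.44 and 2.84 in the shCHD7_2 samples, a ratio of mRNA levels that says nothing of the proteins.

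MXI1 (chr10:110207605-110287365, plus strand), which competes with MYC for MAX, gave 1124 and 1142 counts in the vector and 778 and 731 in the shCHD7_2 samples. In CPM these were 72.4 and 72.3 in the vector and 48.5 and 45.8 in the shCHD7_2 samples. The vector samples nearly coincided, and both shCHD7_2 samples lay well below them. MXI1 fell by 0.62 on the log2 scale (SE 0.087, 95% interval -0.80 to -0.44, adjusted p = 3.67e-05, edgeR), a level of 0.652 (95% interval 0.576 to 0.738) times that of the vector. The size lies just past 1.5-fold, and the 1.5-fold call was lost when libraries were scaled by their totals (log2 fold change -0.57) and without shCHD7_2 replicate 2 (-0.58). On log2(FPKM + 1), whose fold changes understate those of low genes, it was also lost (-0.56), and with no filter on low values the adjusted p was 0.0725 (limma). By adjusted p, MXI1 passed in 14 of 15 alternative settings, with log2 fold changes from -0.66 to -0.56.

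None of the other antagonists passed the test. MXD1 (chr2:69897688-69942945, plus strand) had 54.8 and 55.0 CPM in the vector and 49.7 and 48.0 in the shCHD7_2 samples. Its groups did not overlap, but the log2 fold change of -0.17 (SE 0.087, 95% interval -0.35 to 0.012) did not pass (adjusted p = 0.231, edgeR). MXD4 (chr4:2247432-2262294, minus strand) had 27.7 and 23.0 CPM in the vector and 27.1 and 27.4 in the shCHD7_2 samples, and the vector samples enclosed the shCHD7_2 samples. Its log2 fold change was 0.11 (95% interval -0.12 to 0.33, adjusted p = 0.587, edgeR), and -0.024 without vector replicate 2.

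MXD3 (chr5:177301461-177312757, minus strand), a member expressed in dividing cells, was the least abundant, with 7.09 and 6.52 CPM in the vector and 6.17 and 8.52 in the shCHD7_2 samples. The shCHD7_2 samples enclosed the vector samples, and the 95% interval of its log2 fold change, -0.26 to 0.48, was the widest of the group. Exons of MXD3 overlap RAB24 on the same strand and PRELID1 on the opposite strand, and its estimated counts were not whole numbers, so its level is uncertain. MXD1 exons overlap SNRNP27 on the same strand, and MAX, MXI1, MNT and MGA overlap noncoding RNAs on the opposite strand. Whether counting used the strand is not given in the sources used here, and reads of overlapping genes can then not be told apart.

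MNT (chr17:2384060-2401118, minus strand), the antagonist made in resting and dividing cells alike, had 40.3 and 38.2 CPM in the vector and 41.3 and 35.9 in the shCHD7_2 samples. MGA (chr15:41621224-41773081, plus strand), the largest of these proteins, had 66.4 and 78.5 CPM in the vector and 87.0 and 70.2 in the shCHD7_2 samples. For both genes the groups overlapped, with log2 fold changes of -0.02 (95% interval -0.22 to 0.18, adjusted p = 0.906) for MNT and 0.12 (-0.094 to 0.33, adjusted p = 0.514) for MGA in edgeR. The sign of the MNT difference turned to 0.020 with scaling by library totals, and that of MGA to -0.051 without shCHD7_2 replicate 1, and that of MXD3 to -0.14 without shCHD7_2 replicate 2.

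**Figure D2:**
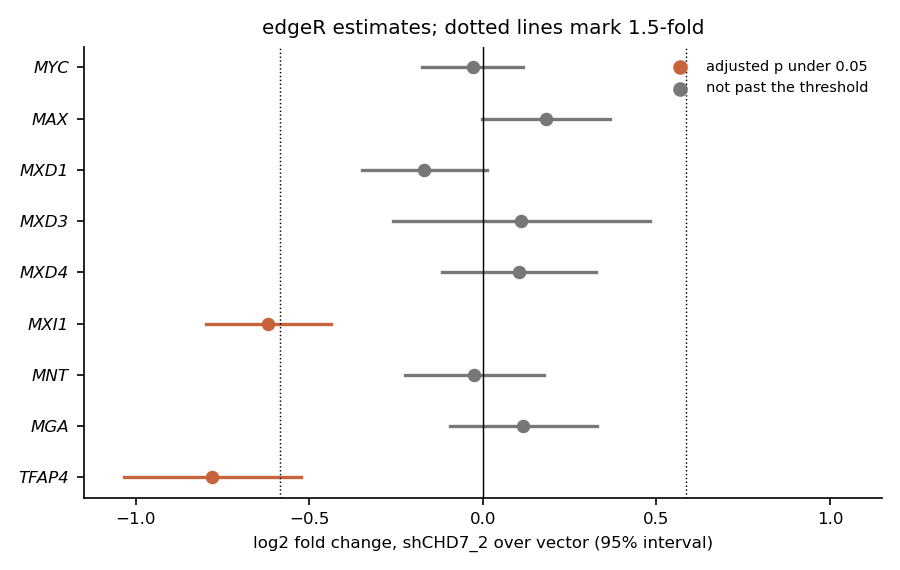
Log2 fold change of shCHD7_2 over vector from edgeR for the 9 genes, with 95% intervals as horizontal lines, orange for an adjusted p under 0.05 and grey otherwise. Only the intervals of MXI1 (-0.80 to -0.44) and TFAP4 (-1.03 to -0.52) lie wholly below 0, and that of MYC is the narrowest around 0.

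Read per length, MXI1 was the most abundant antagonist in both groups. The summed FPKM of MXD1, MXD3, MXD4, MXI1, MNT and MGA was 61.4 and 60.1 in the vector and 57.5 and 54.2 in the shCHD7_2 samples. MXI1 made up 36.4% and 37.1% of it in the vector and 26.4% and 26.5% in the shCHD7_2 samples, while MXD4 went from 14.8% and 12.8% to 18.7% and 17.6%. MYC stood at 1.80 and 1.79 times the summed antagonists in the vector and 1.89 and 2.06 times in the shCHD7_2 samples. The mean log2 ratio was 0.14 higher in the shCHD7_2 samples, with a pooled SD of 0.062 (n = 2 per group), and no test was made of this score. With MXD1, MXD3, MXD4 and MXI1 alone, the ratio was 2.40 and 2.44 in the vector and 2.73 and 2.89 in the shCHD7_2 samples, a log2 difference of 0.22. Taken on CPM, with all 6 antagonists, the ratios of the groups overlapped (1.82 and 1.74 against 1.79 and 2.04).

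**Figure D3:**
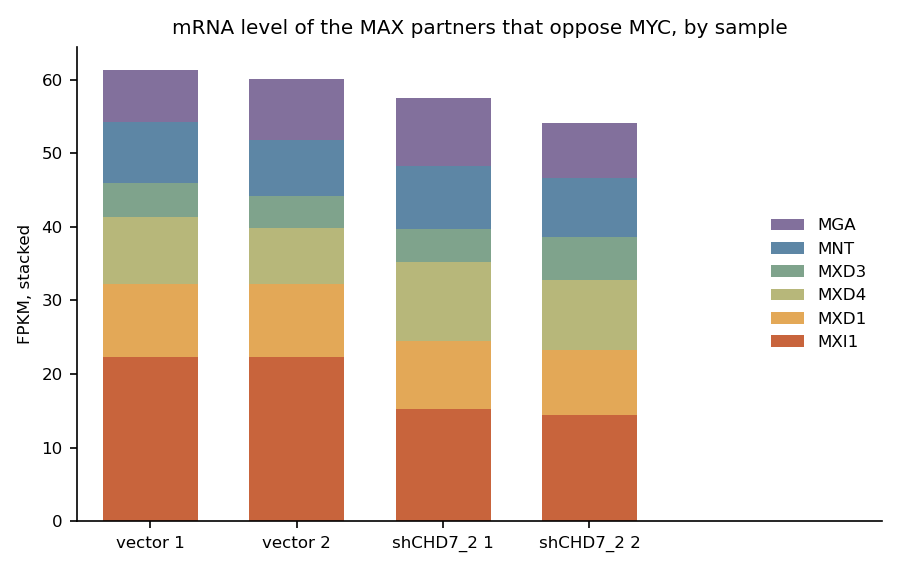
FPKM of the 6 MAX-binding antagonists of MYC stacked for each of the 4 samples, on a linear axis from 0. The lowest segment, MXI1, is 22.4 and 22.3 FPKM in the vector and 15.2 and 14.4 FPKM in the shCHD7_2 samples, and the whole bars differ less.

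TFAP4, at chr16:4257186-4273075 on the minus strand with no overlapping exon of another gene, gave 454 and 367 counts in the vector and 237 and 252 in the shCHD7_2 samples. The vector samples differed from each other (29.2 and 23.2 CPM) more than the shCHD7_2 samples did (14.8 and 15.8 CPM), and both were above them. TFAP4 fell by 0.78 on the log2 scale (SE 0.12, 95% interval -1.03 to -0.52, adjusted p = 0.000142, edgeR), to a level of 0.583 (95% interval 0.489 to 0.695) times the vector. It ranked 169th of all genes by p, and MXI1 111th. Leaving out vector replicate 1 gave -0.61 and leaving out vector replicate 2 gave -0.94, with the lone vector sample assumed to vary like the other group. The adjusted p was 0.0663 without a filter on low counts (edgeR), 0.0559 in DESeq2 with a replicate block and 0.123 on log2(FPKM + 1) with no filter (limma), and TFAP4 passed in the other 12 of 15 settings.

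Of the 9 genes, TFAP4 changed its place in the order of levels the most. In the vector samples the order by mean FPKM was MYC (109.1), MAX (36.3), MXI1 (22.3), TFAP4 (13.1), MXD1 (9.92), MXD4 (8.38), MNT (7.88), MGA (7.75) and MXD3 (4.54), where MXD4, MNT and MGA did not differ from their neighbours in this trio beyond the spread of samples. In the shCHD7_2 samples it was MYC (110.2), MAX (42.0), MXI1 (14.8), MXD4 (10.1), MXD1 (9.09), MGA (8.38), MNT (8.26), TFAP4 (7.84) and MXD3 (5.23). TFAP4 had moved from place 4 to place 8, where its range overlapped that of MNT. The range of MXD1 overlapped that of MGA, and the range of MGA that of MNT, while MXD1 did not overlap MXD4.

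Patterns over the 4 samples were taken as centred log2 CPM, with a small constant first added to each CPM. Nearest to TFAP4 lay EFEMP2, CNKSR3 and HSPA6, at Euclidean distances of 0.103, 0.119 and 0.123. CNKSR3 had 12.6 and 10.0 CPM in the vector and 5.61 and 6.58 in the shCHD7_2 samples, the same order of all 4 samples as TFAP4. EFEMP2 and HSPA6 had this order too, which picking by nearness favours. EFEMP2 was near the limit of the filter, at 0.624 to 1.87 CPM, where the added constant shrinks differences. Its log2 fold change in edgeR was -1.14, against -0.78 for TFAP4, so its nearness depends on that constant. HSPA6 has near-identical relatives that can share its reads. The patterns nearest to MYC were those of P3H3, GAREM2 and SDHB, at distances of 0.00658, 0.00903 and 0.0116. None of these genes passed the test, which picking them for likeness to MYC had fixed in advance. Such likeness over 4 samples is a description.

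The promoter of CDKN1A is shown because TFAP4 binds CAGCTG and CDKN1A is a known target that it represses. In the RefSeq promoter, which spans 250 bases before to 50 bases after the start site (GRCh38.p14, chr6:36678464-36678763, plus strand), the capitals mark each CAGCTG, a word that reads the same on both strands.
CDKN1A: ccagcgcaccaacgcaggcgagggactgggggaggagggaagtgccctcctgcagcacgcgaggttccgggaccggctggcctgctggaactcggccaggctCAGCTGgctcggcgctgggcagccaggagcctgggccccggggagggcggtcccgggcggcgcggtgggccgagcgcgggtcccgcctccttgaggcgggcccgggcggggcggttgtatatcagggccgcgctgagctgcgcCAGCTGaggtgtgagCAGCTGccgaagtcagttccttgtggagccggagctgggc

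CAGCTG occurred 3 times, beginning at positions -148, -5 and 11 from the start site. It was held at least once by 17.9% of all 35116 RefSeq promoters of this length and 17.2% of the 13821 promoters of tested genes. The share holding it 3 times was not taken, so how unusual this promoter is was not shown. Of the 9 genes, 7 had 1 or more entries in the promoter table, 12 promoters in all, and MYC and TFAP4 are named only. CAGCTG was present in a promoter of MXD3 (position -68) and 1 of the 3 promoters of MGA (position 26). CACGTG, the E-box that MYC and MAX bind and that occurs in 7.26% of all promoters, was present in those of MXD4 (position -238) and MNT (position -193). The 3 promoters of MXI1 held neither word. These are letters in a window, not bound sites.

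CDKN1A, which encodes the cyclin-dependent kinase inhibitor p21 and is also a target of p53, rose. It had 127.7 and 112.5 CPM in the vector and 243.5 and 252.1 in the shCHD7_2 samples, with no overlap, and a log2 fold change of 1.04 (SE 0.080, adjusted p = 4.66e-09, edgeR). The paper reports more p53 protein in CHD7-depleted cells, and the part of TFAP4 or p53 in this rise was not tested. Among 13 genes known as targets of TFAP4, 8 were tested, of which 1 rose and 2 fell, with a median log2 fold change of 0.10 beside 0.000557 over all genes tested. The list was not split by the direction in which TFAP4 acts on each gene, so this median says nothing of TFAP4 activity. CD44, a cell-surface glycoprotein of colorectal cancer cells, fell by 0.42 (309.1 and 306.1 CPM in the vector, 237.4 and 221.9 CPM in the shCHD7_2 samples, adjusted p = 0.000468, edgeR). VIM, the mesenchymal intermediate filament vimentin, fell by 0.31 (adjusted p = 0.024, edgeR) but passed in only 4 of 15 settings, and not without shCHD7_2 replicate 1 (adjusted p = 0.0631), vector replicate 1 (0.0892) or vector replicate 2 (0.257). CD44 passed in 13 settings and CDKN1A in 14. SNAI1, OCLN, CCNE2, MDM2 and SOX4 did not pass, with log2 fold changes between 0.05 and 0.15. CDKN2A, CDH1, FN1 and LGR5 were listed but too low to be tested, and no value of CDH2 was used here. The 3 genes that passed are 37.5% of the 8 tested, so few that 1 gene moves the share widely, and the list was chosen with results of these data known.

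Genes that MYC activates, among them those for nucleolar assembly, nucleotide synthesis and translation, included 3 that passed the adjusted p. Of 48 such genes, all tested, 1 rose and 2 fell, a share of 6.25% beside 11.5% of all genes, and their median log2 fold change was -0.02. DNPH1, which cleaves deoxynucleoside monophosphates, rose by 0.33 (40.3 and 33.9 CPM against 41.9 and 51.3, adjusted p = 0.0477, edgeR). CCND2, the gene of cyclin D2, fell by 0.30 (adjusted p = 0.0129), and ENO1, a glycolytic enolase, fell by 0.21 (adjusted p = 0.0442). None of the 3 reached 1.5-fold. DNPH1 and ENO1 passed in 5 and CCND2 in 7 of 15 settings, and each missed the adjusted p without at least 2 of the single samples. These were shCHD7_2 replicate 2 (adjusted p = 0.39) and vector replicate 2 (0.492) for DNPH1, and shCHD7_2 replicate 2 (0.0584) and vector replicate 1 (0.243) for CCND2. For ENO1 they were shCHD7_2 replicate 1 (0.0703), vector replicate 1 (0.362) and vector replicate 2 (0.273), all from edgeR.

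Genes that MYC is known to repress moved in both directions. Of 18 genes on the list, 16 were tested, 2 rose and 2 fell, a share of 25.0% beside 11.5% of all genes, with a median log2 fold change of 0.12. CDKN1A, also a TFAP4 target, was one that rose. TXNIP, an inhibitor of thioredoxin that restrains glucose uptake, rose by 0.70 (24.7 and 26.5 CPM in the vector, 42.2 and 40.9 CPM in the shCHD7_2 samples, adjusted p = 3.06e-05, edgeR). NDRG1, a stress-induced gene, fell by 0.36 (296.8 and 315.6 against 236.7 and 239.5 CPM, adjusted p = 0.00183, edgeR), and GADD45B, a stress sensor, fell by 0.47 (22.6 and 22.2 against 14.8 and 17.6 CPM, adjusted p = 0.0111, edgeR). Neither reached 1.5-fold. NDRG1 missed the adjusted p without vector replicate 2 (0.0971). GADD45B missed it without shCHD7_2 replicate 1 (0.0721), vector replicate 1 (0.0584) or vector replicate 2 (0.0512).

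**Figure D4:**
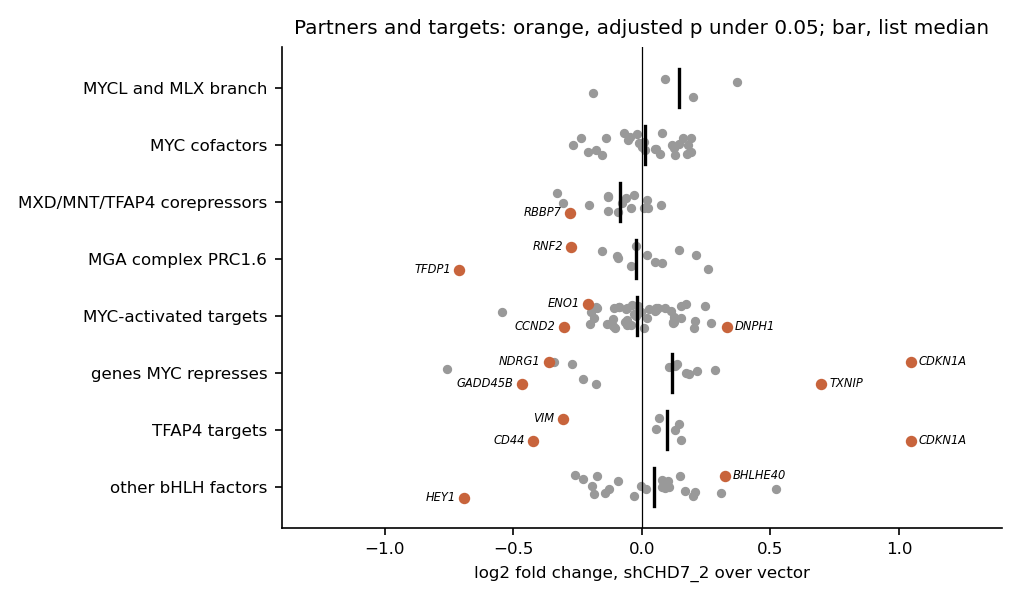
Log2 fold change of shCHD7_2 over vector for each tested gene of the 8 lists of partners and targets, with a black bar at the list median and orange points for an adjusted p under 0.05. The medians lie between -0.08 and 0.14, and CDKN1A, at 1.04, stands in both target lists.

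For the partners of these factors, shares past the adjusted p are to be read beside the 11.5% of all genes. None of 27 MYC coactivators and regulators of MYC protein passed the adjusted p in edgeR, DESeq2 or limma-voom (median log2 fold change 0.01 in edgeR), and 7 of them had an unadjusted p under 0.05 in edgeR, beside 3035 of the 11955 genes tested. In the same 3 tools 0 of 4 tested genes of the MYCL and MLX branch passed (median 0.14), and 1 had an unadjusted p under 0.05. Among 16 corepressor genes, 4 were above and 12 below 0, beside 5993 above and 5962 below over all genes tested. Their median was -0.08, 1 gene passed (6.25%), and a shift of this list was not tested. RBBP7, a histone-binding subunit of SIN3 and other complexes, fell by 0.28 (144.9 and 151.0 against 121.0 and 122.5 CPM, adjusted p = 0.0194, edgeR) and passed in 7 of 15 settings. It missed the adjusted p without vector replicate 1 (0.106) or vector replicate 2 (0.292). In the 13-gene MGA complex PRC1.6, TFDP1 and RNF2 fell, a share of 15.4%, and the median was -0.02.

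TFDP1, the dimerization partner of E2F factors including E2F6, had 141.2 and 133.7 CPM in the vector and 86.4 and 81.6 CPM in the shCHD7_2 samples. It fell by 0.71 on the log2 scale (SE 0.081, adjusted p = 2.23e-06, edgeR) and passed in 14 of 15 settings. RNF2, a ubiquitin ligase of Polycomb complexes, fell by 0.27 (adjusted p = 0.0431, edgeR) and passed in 4 settings, but not without shCHD7_2 replicate 2 (0.153), vector replicate 1 (0.153) or vector replicate 2 (0.332). E2F6 itself, the DNA-binding partner of TFDP1 in this complex, had a log2 fold change of 0.05 (adjusted p = 0.784, edgeR).

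Among 24 tested genes of other basic helix-loop-helix factors, many of which bind E-boxes, 1 rose and 1 fell (8.33%, median 0.05). BHLHE40, a hypoxia-induced repressor of circadian clock genes, rose by 0.32 (125.0 and 120.7 against 153.6 and 153.4 CPM, adjusted p = 0.00752, edgeR) and passed in 8 of 15 settings. It missed the adjusted p without vector replicate 1 or vector replicate 2, where the log2 fold change was 0.34 and 0.30. HEY1, a Notch target, fell by 0.69 (8.12 and 9.06 against 5.55 and 5.08 CPM, adjusted p = 0.00854, edgeR) and passed in 10 of 15 settings. It missed the adjusted p without vector replicate 2 (0.1), in DESeq2 (0.0981), with no filter on low counts (0.0791), in DESeq2 with a replicate block (0.687) and on log2(FPKM + 1) with no filter (0.098).

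The words printed above for TFAP4 and MXI1 were also looked up in the 14 genes of these lists that passed. At least 2 words were present in the 3′ UTRs of TFDP1, RBBP7, CCND2 and CD44, which fell, and 1 word in that of TXNIP, which rose. The other 9 genes, 6 of which fell, held none. Of all tested genes with a 3′ UTR, 22.3% held at least 1 word, and longer 3′ UTRs hold more. At the length of MXD1 (4661 bases) this share was 53.4%, and no share matched for length was taken for the list genes. The share holding 2 or more words was not taken either, and overlapping words can lie in 1 stretch. The 3′ UTRs were 1203 (TFDP1), 694 (RBBP7), 5341 (CCND2) and 3069 (CD44) bases long. As the words were picked on these data from genes of lower level, this is a description and was not tested.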

How the data were processed

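The authors deposited estimated counts per gene, not normalized, and FPKM values normalized for length and depth, for 15357 genes in 2 vector and 2 shCHD7_2 samples. The submitters' processing notes name hg38, Bowtie2, RSEM and DESeq2, whose versions, settings and annotation are not given in the sources used here. RSEM divides reads between similar genes, so genes with close copies are uncertain. In each sample, between 13.65% and 14.7% of the 15357 genes had an estimated count that was not a whole number.

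Counts were rounded and filtered with filterByExpr, TMM factors were applied, and the 11955 genes kept were fitted by quasi-likelihood in edgeR 4.0.16 (R 4.3.3), two-sided, with Benjamini-Hochberg adjustment. The thresholds were an adjusted p of 0.05 and, for calls, 1.5-fold. Totals were 15734666 and 16068642 counts (vector) and 15749603 and 15771489 (shCHD7_2), and the biological coefficient of variation was 0.0579. Standard errors were derived from the F statistic. The fits were tested on simulated data.

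The members and gene lists were chosen with earlier results of these data known. Named are all members, CHD7, CDKN1A, list genes past the adjusted p (at most 6 per list), the 3 genes nearest in pattern to TFAP4 and to MYC, and the markers needed. Other genes of the TFAP4 target list, E2F6 and the overlapping genes were named after their values were seen.

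Alternatives were edgeR scaled by library totals or by the size factors of DESeq2, DESeq2 1.42.0 itself, limma-voom (limma 3.58.1), no filter or at least 1 CPM in 2 samples, a replicate block in edgeR and DESeq2, limma on log2(FPKM + 1) or log2(FPKM + 0.1), keeping a mean FPKM of at least 1 or every gene, and leaving out each sample. A crossed pairing was added after seeing the data. The 3′ UTRs and gene positions are those of GENCODE 29 on GRCh38, and promoters are RefSeq's on GRCh38.p14.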

Additional observations from a re-analysis of the deposited data

How the results depend on the processing

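Of the 15 alternative settings, all kept the direction of MXI1, TFAP4 and CHD7, and none moved MYC, MAX, MXD1, MXD3, MXD4, MNT or MGA past the threshold. With 2 samples per group, depth limits mainly MXD3, at about 100 counts per sample. The causes of the differences between settings were not tested. Adding 1 to FPKM shrinks folds by construction, but not every difference from the counts had that direction or needed that constant. CHD7 went from -0.74 on counts to -0.58 on log2(FPKM + 0.1), and MXD4 from 0.11 to 0.25 on log2(FPKM + 1).

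In edgeR 344 genes were called and 1373 passed at any fold, with 14 list genes and 2 members. DESeq2 gave 219, 800 and 9 list genes. Without a filter on low counts the figures were 141, 197 and 4, with 1 member past and called, and TFAP4 at -0.78. On log2(FPKM + 1) with a minimum they were 169, 834 and 8, with 1 member called, and without a minimum 12 called, the same 12 past, 0 list genes and 0 members, with MXI1 at -0.56, TFAP4 at -0.66 and CHD7 at -0.51 (limma, adjusted p = 0.0725, 0.123 and 0.083). At an unadjusted p under 0.05 this last fit had 2 members and 41 list genes. The number over all genes was not taken in this fit, so these counts have no background. In the main edgeR fit 3035 of the 11955 genes tested had an unadjusted p under 0.05. On log2(FPKM + 0.1) 562 genes and 4 list genes passed. Library totals left 1 member called. Differences near 0 changed sign for MYC (0.015 with library totals, and 0.014 in each FPKM fit) and for MNT (0.020 with library totals, 0.061 on log2(FPKM + 1) with or without a minimum, 0.067 on log2(FPKM + 0.1)). The MYC ratio was 0.22 with the MXD proteins and MXI1 alone.

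Leaving out each sample in turn gave 308 to 380 genes called, 610 to 1702 past at any fold, 5 to 22 list genes past and 1 to 2 members called. The lowest counts past came without vector replicate 2 and the most without shCHD7_2 replicate 1, while 1 member was called without shCHD7_2 replicate 2. The log2 fold change ranged from -0.14 to 0.32 for MXD3 (lowest without shCHD7_2 replicate 2), from -0.024 to 0.24 for MXD4 (lowest without vector replicate 2), from -0.13 to 0.073 for MNT (above 0 without shCHD7_2 replicate 2 or vector replicate 1, where it was 0.014) and from -0.051 to 0.26 for MGA (below 0 without shCHD7_2 replicate 1 or vector replicate 1). That of MXI1 ranged from -0.66 to -0.58, of TFAP4 from -0.94 to -0.61 and of CHD7 from -0.82 to -0.67, and these 3 genes passed in every such fit.

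Replicate numbers are shared by the groups, but nothing states that same-numbered samples belong together. Their deviations from the group means had a correlation of -0.198 over 11955 genes. With 2 samples per group, the crossed pairs have the same correlation with the opposite sign. This single value cannot show which samples, if any, share an origin. With the replicate block, edgeR passed 755 genes and 7 list genes, with MXI1 at -0.62 and TFAP4 at -0.77, and DESeq2 called 141 genes and passed 230, with 4 list genes, 1 member past and called, and TFAP4 at -0.77 (adjusted p = 0.0559). With crossed pairs, an alternative added after seeing the data, 3751 genes, 55 list genes and 4 members passed.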
